A study of Mus musculus with 4 samples.

Results

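Wide H3K4me3 domains are stretches of chromatin in which histone H3 trimethylated at lysine 4 extends over several kilobases in place of the usual narrow promoter peak. They were taken from the replicated peak list of mouse gastrocnemius by joining peaks separated by at most 1000 bp on the 19 autosomes and X, and keeping the joined domains that spanned 7000 bp or more. The choice gave 727 of 35113 domains (2.07%), made from 2272 of the 41953 peaks on these chromosomes. The members were thus chosen by their width in the replicated list, and every width below is a description of the choice and not a test of it.

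Chromatin immunoprecipitation sequencing (ChIP-seq) with an H3K4me3 antibody had been run on gastrocnemius, a calf muscle rich in fast fibres, of female adult mice of strain B6CASTF1/J, 2 months old, which are hybrids between C57BL/6J and CAST/EiJ. The 4 libraries came from 2 tissue pools, E and F, each of 2 biosamples with 2 technical libraries, and the labels give all of them the same donor record. All libraries shared sex, age, strain and tissue and no treatment is named, so no contrast between conditions existed. Each pool had a peak list of its own, a further list pooled both, and the replicated list also rested on both, so the pool lists are not independent of the choice of members. The lists hold no read counts, so depth is unknown, and in bulk tissue the number of nuclei that carry a mark and the amount of mark per nucleus cannot be told apart.

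H3K4me3 is laid down at active and poised promoters by SET1 and MLL family methyltransferases, mostly at CpG islands, and is removed by KDM5 demethylases. Most promoters carry it in a compact block around the nucleosome-free start. A minority carry it far into the gene, and such broad domains are known in many tissues for covering genes that define the identity of the cell, including lineage transcription factors, and genes with high and steady transcription. Skeletal muscle fibres are multinucleated cells packed with sarcomeres, the contractile units, and with triads, the membrane junctions that release calcium, and the same tissue holds endothelial cells, fibroblasts, satellite cells and nerve support cells.

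The start sequences of 6 genes are shown because each gene was the only protein-coding gene in 1 of the 25 widest domains and because they span CpG-rich and CpG-poor starts. Each is the RefSeq window of GRCm38.p6 (the build of mm10), 250 bases before to 50 after the RefSeq start, written 5′ to 3′ on the gene's strand with every CG in capitals. Usp2 is at chr9:44084670-44084969 on the plus strand, Nfic at chr10:81427124-81427423 on the minus strand, Ttn at chr2:76982498-76982797 on the minus strand, Jph2 at chr2:163397944-163398243 on the minus strand, Asb2 at chr12:103355952-103356251 on the minus strand and Pde4b at chr4:102569810-102570109 on the plus strand.
Usp2: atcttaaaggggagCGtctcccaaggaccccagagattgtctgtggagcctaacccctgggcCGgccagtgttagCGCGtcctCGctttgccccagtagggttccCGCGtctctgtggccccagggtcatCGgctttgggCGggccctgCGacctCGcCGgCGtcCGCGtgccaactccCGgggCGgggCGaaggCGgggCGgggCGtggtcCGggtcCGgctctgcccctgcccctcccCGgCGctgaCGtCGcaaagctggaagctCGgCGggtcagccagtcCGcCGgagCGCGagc
Nfic: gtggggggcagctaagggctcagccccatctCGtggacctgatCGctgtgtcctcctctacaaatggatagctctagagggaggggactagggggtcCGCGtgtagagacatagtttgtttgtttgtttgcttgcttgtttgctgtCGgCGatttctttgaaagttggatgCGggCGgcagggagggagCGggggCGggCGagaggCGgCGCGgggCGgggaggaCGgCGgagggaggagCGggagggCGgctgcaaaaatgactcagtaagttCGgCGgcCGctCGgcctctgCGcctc
Ttn: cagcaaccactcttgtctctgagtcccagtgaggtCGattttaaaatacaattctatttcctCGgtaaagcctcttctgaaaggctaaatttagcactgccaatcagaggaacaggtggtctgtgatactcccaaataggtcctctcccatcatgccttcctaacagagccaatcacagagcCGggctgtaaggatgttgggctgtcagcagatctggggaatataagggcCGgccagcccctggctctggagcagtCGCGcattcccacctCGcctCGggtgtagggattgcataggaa
Jph2: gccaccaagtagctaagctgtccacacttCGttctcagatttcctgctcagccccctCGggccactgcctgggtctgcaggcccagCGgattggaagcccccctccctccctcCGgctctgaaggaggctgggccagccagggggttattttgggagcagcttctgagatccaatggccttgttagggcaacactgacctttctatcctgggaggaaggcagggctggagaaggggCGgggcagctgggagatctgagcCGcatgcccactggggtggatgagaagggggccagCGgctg
Asb2: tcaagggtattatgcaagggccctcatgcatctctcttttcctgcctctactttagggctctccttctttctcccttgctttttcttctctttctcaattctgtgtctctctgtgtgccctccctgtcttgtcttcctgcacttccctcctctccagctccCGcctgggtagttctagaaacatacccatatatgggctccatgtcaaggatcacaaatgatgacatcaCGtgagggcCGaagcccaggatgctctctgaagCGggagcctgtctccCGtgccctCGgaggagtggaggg
Pde4b: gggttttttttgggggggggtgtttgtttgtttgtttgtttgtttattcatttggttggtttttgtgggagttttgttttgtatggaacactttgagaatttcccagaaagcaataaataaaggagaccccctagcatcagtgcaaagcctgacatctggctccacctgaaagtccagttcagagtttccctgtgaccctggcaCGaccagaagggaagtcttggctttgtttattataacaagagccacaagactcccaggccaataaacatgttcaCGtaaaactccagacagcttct

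The Usp2 window held 33 CG and the Nfic window 24, against 8 for Ttn, 7 for Jph2, 6 for Asb2 and 2 for Pde4b. Over the 32585 RefSeq promoter windows of this length the median was 7 CG (interquartile range 3 to 20). The Usp2 window is not at the edge of its domain: it is an internal start of the gene, 17899 bp downstream of the most upstream GENCODE transcription start site (TSS) in the same domain.

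Wide domains also held 26 of the 1005 RefSeq miRNA hairpins on these chromosomes (2.59%). Of the 2196 GENCODE miRNA genes, 38 (1.73%) started in 1. The 5 mature miRNAs below were picked after their values were seen, because pairs of them share a seed or sit in the widest domains. The seed, bases 2 to 8, is in capitals.
miR-126a-3p: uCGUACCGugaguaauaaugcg
miR-196a-5p: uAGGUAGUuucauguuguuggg
miR-196b-5p: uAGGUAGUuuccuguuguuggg
miR-132-3p: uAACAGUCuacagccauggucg
miR-212-3p: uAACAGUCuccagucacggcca

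The hairpin of miR-126a, an endothelial miRNA, lay in the 23868 bp domain of its host gene Egfl7. The hairpins of miR-196a and miR-196b, which share the seed AGGUAGU, lay in the 31600 bp Hoxc domain and the 21482 bp Hoxa domain. Those of miR-132 and miR-212, which share AACAGUC, lay together in the 11662 bp domain of the repressor gene Hic1. No mature miRNA was measured here; only the mark over the locus was.

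At the median the 727 domains were 8845 bp wide (quartiles 7793.5 and 11123.5 bp, widest 32642 bp), and they covered 7.39 Mb, 12.3% of the bases under all domains. The narrowest members were the domains of Mbnl2 (7000 bp), Dcaf6 and Mpc2 (7001 bp), Cbx3 and Hnrnpa2b1 (7002 bp), Smim14 (7007 bp) and Osbp (7014 bp). Just outside were B230206L02Rik (6994 bp), Gapdh and Dleu2 (6991 bp each), Hes5 with Pank4 (6988 bp) and Plxdc2 (6987 bp). The limit thus cut through a continuous range of widths.

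**Figure D1:**
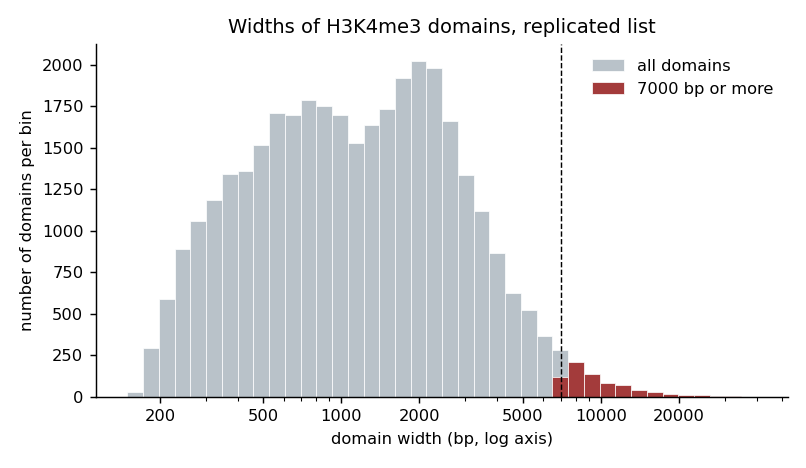
Number of domains (y axis) by domain width in bp (x axis, log scale) in the replicated list, with all 35113 domains in grey, the 727 domains of 7000 bp or more in red and the limit dashed. The wide domains form the right tail of the distribution, with no gap at 7000 bp.

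Most wide domains were built around a dominant peak and extended by weak ones. The median domain held 3 peaks (interquartile range 2 to 4), 124 domains (17.1%) were a single peak, 182 held 2, 172 held 3 and 249 (34.3%) held 4 or more. Under 7000 bp, 87.3% of domains were a single peak. A peak of 7000 bp or more on its own was present in 327 wide domains (45.0%), so 400 of the members reached the limit only by joining. In the 603 domains with several peaks the strongest had a median signal value, the authors' own score of a peak, of 45.0 and the weakest 3.36, and the strongest was also the widest in 546 (90.5%). The weakest is the lowest of each domain and does not describe its other peaks. Usp2 had 2 strong peaks (33.5 and 51.3), as had Kmt2e (48.0 and 56.2). The 1545 gaps that were bridged had a median of 216 bp, and peaks covered a median of 94.9% of the span.

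The widest peak took a median of 69.8% of the width with single-peak domains included, and 64.0% in the 603 domains with several peaks. It took at least 50% in 590 of all wide domains (81.2%). The single peak of Zeb2, the gene of a zinc-finger homeobox repressor, was the widest of its kind at 16323 bp, with 19474 bp in the pool E list and 16041 bp in the pool F list. It was followed by the fast myosin light chain gene Myl1 (14002 bp), Setd1b with Rhof (13462 bp), Irf2bp2 (13194 bp) and the H3K27 demethylase gene Kdm6b (13049 bp). At the other end 6 domains held 10 or more peaks. Pde4dip, the gene of the phosphodiesterase-anchoring protein myomegalin, had 15, a downstream Ttn domain had 13, Tmem38a with Smim7 had 12, and a domain near Lpin1 with no GENCODE TSS had 12.

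The highest signal value in a domain had a median of 45.9 (range 5.17 to 62.6), against 43.0 in the 14144 domains under 7000 bp with a protein-coding TSS inside. A signal value of 40 or more occurred in 468 wide domains (64.4%) and in 54.7% of the narrower coding ones, and 49 wide domains (6.74%) stayed below 20, against 19.7% of the narrower coding domains. Among these 49 were the downstream domains of Ttn and Asb2 and the body domains of Zbtb16 and Pgm1.

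Nearly every wide domain held a TSS of a protein-coding gene, although not always the most upstream. An annotated protein-coding TSS was inside 688 of 727 (94.6%, 95% Wilson interval 92.8 to 96.1%), against 42.2% of all domains. Strong narrower domains shared this: of the 8149 under 7000 bp with a signal value of 40 or more, 7736 held such a TSS. These starts belonged to 804 of the 21755 protein-coding genes (3.7%), or 5.5% of the 14616 genes with a TSS in any domain. A single protein-coding gene started in 581 domains, 2 in 84 and 3 or more in 23, while 19 held starts of non-coding genes alone and 20 held none. Of non-coding genes, 82 of 2958 antisense genes (2.77%) and 54 of 5305 lincRNA genes (1.02%) had a TSS in a wide domain. The domains with the most protein-coding genes were a histone cluster on chromosome 13 with 5 (Hist1h2ad, Hist1h2ae, Hist1h2bf, Hist1h2bg and Hist1h3d), and, with 4 each, the Hoxc domain, Eno3 with Pfn1, Rnf167 and Slc25a11, Myom1 with Myl12a and 2 gene identifiers of Myl12b, and Rxrb with Ring1, H2-Ke6 and Slc39a7.

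With gaps of up to 1000 bp bridged, the widest domain covered Pde4dip on chromosome 3, from 97793389 to 97826030, and measured 32642 bp in the replicated list, 34200 bp for pool E and 32199 bp for pool F. The Hoxc domain with Hoxc5, Hoxc9, Hoxc10 and Hoxc11, transcription factors that pattern the posterior body and hindlimb, measured 31600 bp, but 20433 bp for pool E and 20506 bp for pool F. Kmt2e, which encodes a SET-domain protein, measured 27647, 27982 and 27257 bp in the same order. In the pools the Hoxc span broke into shorter domains and the other 2 did not. The order depends on the gap: at 500 bp Kmt2e kept 27647 bp, Hoxc had 20459 bp and Pde4dip 18850 bp, and with no gap bridged their widest peaks were 13294, 10737 and 5979 bp.

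Triad and sarcomere genes stood among the 25 widest. Jph2 encodes junctophilin, which ties the tubule membrane to the calcium store, and its domain measured 25482 bp, 17204 bp for pool E and 17961 bp for pool F. Ttn encodes titin, the giant spring of the sarcomere, and its promoter domain measured 23664, 23689 and 23551 bp. Atp2a1, the fast-fibre calcium pump SERCA1, measured 19534, 18290 and 17952 bp. Trdn (triadin) was in the same set with 20319 bp. Tnnt3 (fast troponin T) shared a domain of 24733 bp with Lsp1, and 12056 bp of it lay upstream of Tnnt3. That domain measured 39150 bp for pool E and 22431 bp for pool F. Tmem38a, a cation channel gene of the calcium store, measured 20750 bp, 20712 bp for pool E and 10577 bp for pool F.

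Signalling, metabolic and regulatory genes made up much of the rest of that set. Usp2, a ubiquitin protease, measured 23671 bp with 23892 bp for pool E and 23650 bp for pool F. Nfic, a nuclear factor I gene, measured 23192 bp with 21527 and 23171 bp, and Zbtb16, a zinc-finger repressor, 23754 bp with 22877 and 23543 bp. Nr2f2, an orphan nuclear receptor, measured 25221 bp in 2 peaks. In these 4 domains the pool F width was 0.978 to 1.08 times the pool E width.

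Also in the set were Pygm with Rasgrp2 (22931 bp), Asb2 (21942 bp), the cyclic AMP phosphodiesterase gene Pde4b (21923 bp), the Hoxa7, Hoxa9 and Hoxa10 domain (21482 bp), the coenzyme Q biosynthesis gene Coq8a (21129 bp), the hypoxia factor gene Epas1 (20991 bp), Meox2 (19660 bp), and the endothelial genes Egfl7 (23868 bp) and Tmem204 (20804 bp). Epas1, made of 10 peaks, measured 11263 bp for pool E and 8204 bp for pool F, where its locus held 2 and 4 domains. Pygm, the muscle glycogen phosphorylase gene, likewise fell to 14221 and 12549 bp.

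**Figure D2:**
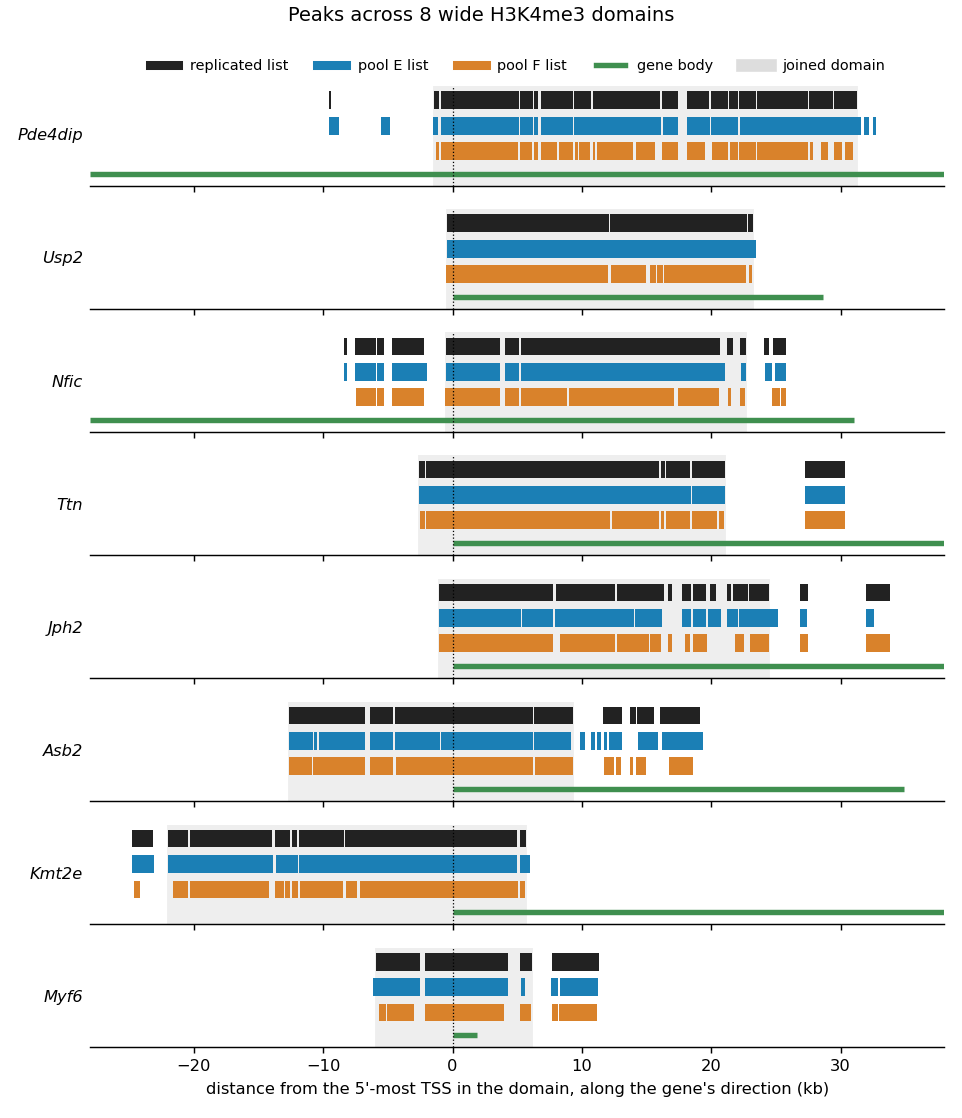
Peaks of the replicated list (black), pool E (blue) and pool F (orange) across 8 wide domains, by distance in kb from the most upstream TSS in the domain along the gene's direction, with the joined domain shaded and the gene body in green (cut at the panel edge). From that TSS the joined domains of Pde4dip, Usp2, Nfic, Ttn and Jph2 extended downstream, that of Kmt2e upstream, and those of Asb2 and Myf6 to both sides. The strongest Usp2 peak, at 12187 to 22731 bp, covered the RefSeq start at 17899 bp. The TSSs used for Pde4dip and Nfic lie inside the gene. At Nfic a peak of signal value 56.8, at -4678 to -2200 bp, was not joined.

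Gene lists for muscle, for other cell types of the tissue and for general processes were set beside the 3.7% of all protein-coding genes. In the fast-fibre list, 12 of 16 members had a TSS in a wide domain and the median width over the whole list was 10846.5 bp. The members inside were Tnnt3, Atp2a1, Eno3, Mybpc2, Myl1, Ckm, Pvalb, Myh4, Actn3, Mylpf, Casq1 and Tnnc2, between 7938 and 24733 bp, and all 12 were wide in both pools. Most of the Eno3 domain (12051 of 17986 bp) lay upstream of Eno3, with 3 other genes. Ckm, the muscle creatine kinase gene, measured 13119 bp with 13044 bp for pool E and 8736 bp for pool F, and Pvalb, the gene of the calcium buffer parvalbumin, measured 12993, 13749 and 12725 bp. In the slow-fibre list 3 of 12 members were inside, Mybpc1, Atp2a2 and Tpm3, none wider than 8411 bp and only Tpm3 wide in both pools, and the list's median was 3213.5 bp.

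Sarcomere and triad genes without a fibre type had 18 of 28 members inside, with a list median of 8091 bp. Besides those above they included Tpm1, Tpm2, Neb, Jph1, Myom1, Myom2, Ldb3, Cacna1s, Ryr1, Mb, Acta1, Dmd, Myoz1 and Actn2. Tpm1, a tropomyosin gene, measured 19268 bp, 19502 bp for pool E and 19277 bp for pool F, and Neb, the gene of the thin-filament ruler nebulin, 17893, 17962 and 17855 bp. Ryr1 and Cacna1s, which encode the calcium release channel and its voltage sensor, measured 10514 and 11317 bp, but Cacna1s varied from 13858 bp for pool E to 7189 bp for pool F. Acta1, skeletal actin, measured 8235 bp, with 8586 and 8924 bp in the pools. Of the 16762 bp of the Myom1 domain, 14352 bp lay upstream of Myom1, on the side of Myl12a and Myl12b.

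Among myogenic transcription factors and their partners 8 of 20 were inside, among them Mef2d (16192 bp), Myf6 (12043 bp), Nfix (11733 bp), Mef2c (8638 bp), Eya1 (8592 bp), Myod1 (8306 bp) and Hdac5 (7330 bp). Hdac5 was under the limit in both pools, with 6462 and 3506 bp, and the other 7 were wide in both. Myf6 is the myogenic factor of adult fibres, and its domain covered the whole 1885 bp gene. Myog, the factor of myoblast differentiation, was outside with 2919 bp. Of 22 hindlimb and axial homeobox genes 8 were inside, namely the 6 listed Hox genes of the domains above together with Meis1 (8277 bp) and Meis2 (7043 bp).

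Energy metabolism had 11 of 24 members inside: Pygm, Pkm (13951 bp), Pfkm (12767 bp), Ak1 (9796 bp), Cs (9223 bp), Ampd1 (9170 bp), Ckmt2 (9048 bp), Pdk4 (7418 bp), Hk2 (7287 bp), Gys1 (7206 bp) and Ldha (7051 bp). Pkm and Pfkm are the pyruvate kinase and muscle phosphofructokinase genes of glycolysis. Cs, citrate synthase, measured 5331 bp for pool E and 3624 bp for pool F, and its 7 peaks reached the limit only in the replicated list. Of the 11 members inside, 5 were wide in both pools. The muscle mass and nutrient list had 6 of 27 inside, the insulin receptor substrates Irs1 (13760 bp) and Irs2 (10609 bp), the atrophy ubiquitin ligases Fbxo32 (13064 bp) and Trim63 (9567 bp), the glucocorticoid receptor Nr3c1 (11439 bp) and the AMPK subunit Prkaa2 (9111 bp). Fbxo32 and Trim63 were under the limit in pool F, with 6694 and 6324 bp, which left 4 of the 6 wide in both pools.

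Clock genes had 5 of 19 inside: Bhlhe40 (11180 bp), Nr1d1 (9917 bp), Nr1d2 (7737 bp), Nfil3 (7572 bp) and Per1 (7372 bp), all of which encode repressors of the circadian loop. Immediate early and stress genes had 12 of 35, led by Klf9 (15137 bp), Fosl2 (11857 bp), Nr4a1 (11697 bp) and Txnip (10539 bp) and including Klf4, Klf6, Btg1, Zfp36, Zfp36l1, Nr4a3, Jund and Mafk. Klf9, a glucocorticoid-induced factor, measured 20735 bp for pool E and 14506 bp for pool F. Chromatin and transcription regulators had 10 of 27 inside, among them Kmt2e, Zbtb16, Setd1b, Kdm6b, Brd2, Tcf4, Zfhx3, Arid1a and Arid1b. Setd1b, an H3K4 methyltransferase gene, measured 13462 bp and 13469 and 13475 bp in the pools, but 10150 bp of it lay upstream of Setd1b, in a domain shared with Rhof.

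Genes of other cell types of the tissue were also present. The endothelial list had 9 of 15 inside with a list median of 9379 bp: Egfl7, Flt1 (12702 bp), Cdh5 (12370 bp), Pecam1 (11962 bp), Erg (11451 bp), Fli1 (10239 bp), Sox7 (9595 bp), Kdr (9379 bp) and Sox17 (7836 bp). Flt1, a VEGF receptor gene, measured 12694 bp in each pool. The fibroblast and fibro-adipogenic progenitor list also had 9 of 15, with a list median of 7861 bp: Col1a1 (15097 bp), Pdgfra (12860 bp), Gsn (11014 bp), Col1a2 (10984 bp), Dcn (10125 bp), Tcf7l2 (8388 bp), Osr1 (7930 bp), Col3a1 (7861 bp) and Cd34 (7099 bp). The satellite cell list had 5 of 12, Sdc4, Spry1, Itga7, Heyl and Cd34, the last being in both lists, while the satellite cell factor Pax7 was outside with 6827 bp, although with 13295 bp for pool E and 6788 bp for pool F. Of the 5, Itga7 and Heyl were under the limit in pool F. Also outside were Hey1 (6633 bp), Vcam1 (4569 bp), Chodl (3709 bp), Fgfr4 (1901 bp) and Calcr (948 bp), and Cdh15 had no TSS in any domain.

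Smooth muscle and pericyte genes had 2 of 10 inside, Pdgfrb (12860 bp) and Rgs5 (7304 bp), and Schwann cell genes 1 of 10, Pmp22 (8845 bp). The tendon (8 genes), macrophage (12), lymphocyte (12), adipocyte (11), neuron (12), hepatocyte (12) and germ cell and pluripotency (11) lists had none. A TSS had to lie inside, and for tendon this rested on 13 bp: a domain of 7055 bp over the body of Fmod, a tendon-list gene entered at 0 bp, began that far from the nearest TSS. The list medians were 4136.5 bp for tendon, 1205.5 bp for neuron, 509 bp for macrophage and 0 bp for the other 4, where a gene with no TSS in a domain counts as 0. All 25 cytosolic ribosomal protein genes had a domain, with a list median of 2772 bp and none wide. The proteasome median was 2545 bp, and that of all protein-coding genes, counted in the same way, 1793 bp. Of 26 proteasome genes 1 (3.85%) was inside, near the 3.7% of all protein-coding genes. It was Psmb3 (7529 bp), and 5641 bp of that domain lay upstream of its TSS and held the start of a further protein-coding gene. The lists of 8 to 25 genes with none inside are too short to be told apart from that 3.7%.

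**Figure D3:**
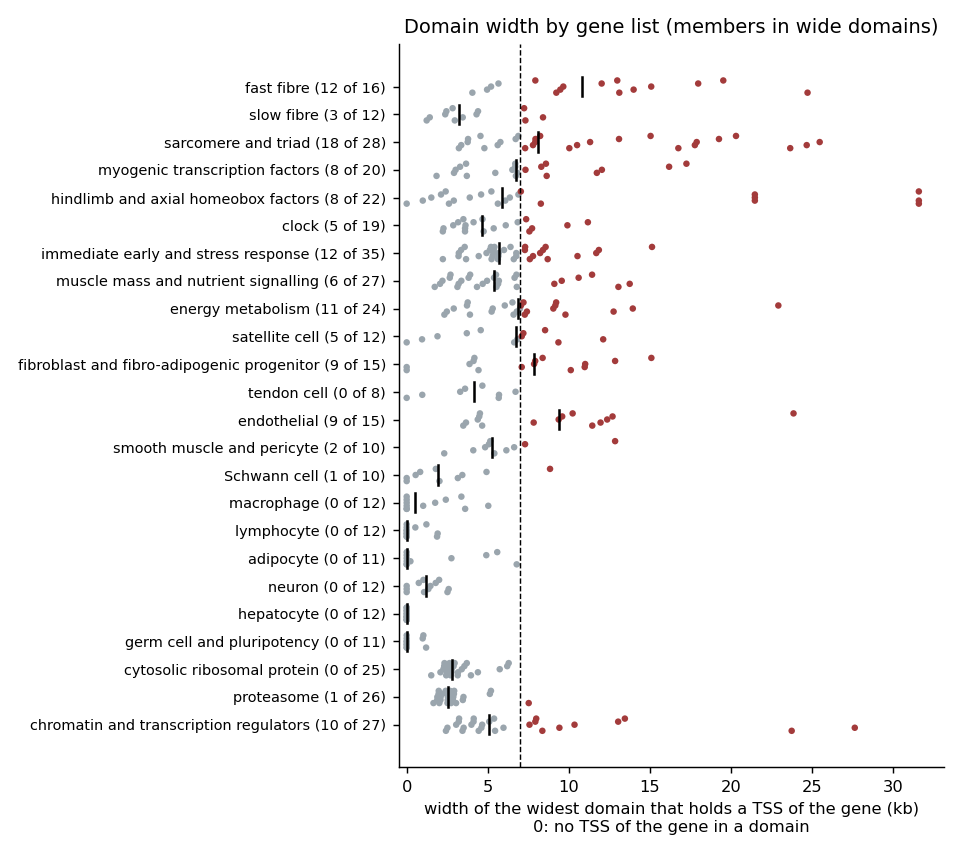
Width in kb (x axis) of the widest domain that holds a TSS of each gene, by list (y axis, with members in wide domains of all members), where red points are 7000 bp or more, grey points are narrower or 0, and bars are list medians. The fast-fibre, endothelial, sarcomere and fibroblast medians lay above the dashed limit, and the cytosolic ribosomal protein and proteasome medians below 3 kb.

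Wide domains extended into the gene. In the 581 domains with 1 protein-coding gene, a median of 1203 bp lay upstream of the most upstream TSS inside (interquartile range 732 to 2046 bp) and 7448 bp downstream (6420 to 9405 bp). The downstream part was 87.6% of the width at the median, against 70.9% in the 12698 narrower domains with 1 protein-coding gene. It exceeded the upstream part in 560 domains (96.4%), against 89.5% of the narrower ones. These values depend on the TSS used. From the most downstream TSS inside, the medians were 69.8% and 60.4%, but the downstream part exceeded the upstream part in 68.7% of wide and 69.7% of narrower domains, so that difference turned. Among genes with 1 TSS position inside, the medians were 83.8% in 135 wide and 69.1% in 3601 narrower domains.

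The most one-sided members were Dmd, the dystrophin gene, with 7 bp upstream and 7939 bp downstream, Pde2a with 24 and 8164 bp, Lzts2 with 23 and 7400 bp, Mybpc1 with 72 and 8338 bp, Amotl2 with 112 and 10583 bp and Bcl2l1 with 81 and 7522 bp. The opposite case was rare: 27 of the 581 domains had more than 5000 bp upstream. The lowest downstream shares among the 581 were at 6 domains. Prr29 had 12039 bp upstream and 1824 bp downstream, Tecr 8593 and 1710 bp, Kmt2e 21975 and 5671 bp, Foxo6 6222 and 1827 bp, Nr2f1 4888 and 2343 bp, and the smaller Asb2 domain 5960 and 1527 bp. All of these except Prr29 shared their domain with an annotated non-coding start, as did 218 of all 727 wide domains (30.0%). The 6 were picked by rank, and a link between such starts and direction was not tested. The myogenic factor genes Myod1 (5610 bp upstream, 2695 bp downstream) and Myf6 (5936 and 6106 bp), and Acta1 (5043 and 3191 bp), were also among the 27.

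**Figure D4:**
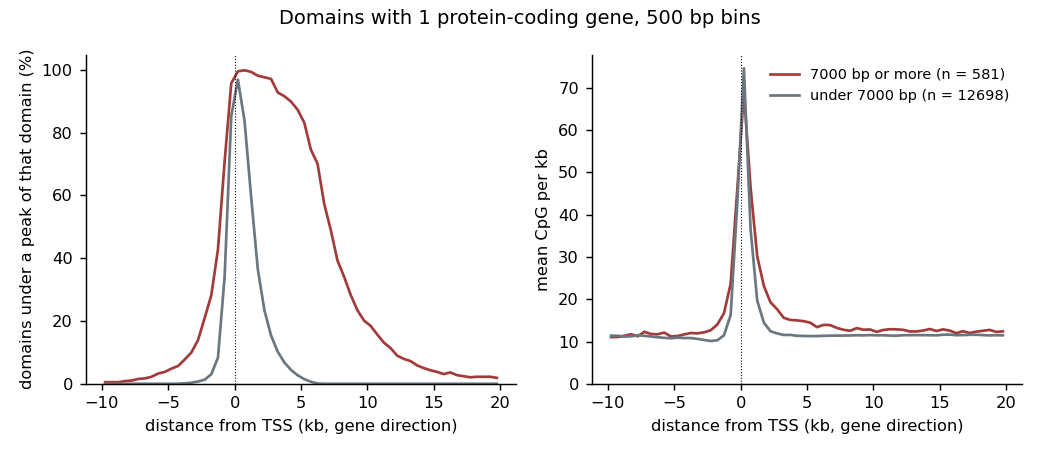
Share of domains under a peak (left, %) and mean CpG per kb (right) in 500 bp bins by distance in kb from the most upstream TSS along the gene, for 581 wide (red) and 12698 narrower (grey) domains with 1 protein-coding gene. The wide profile falls slowly downstream and steeply upstream, while the CpG peak of both groups sits at the TSS.

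The strongest summit stayed near the start. It lay a median of 382 bp downstream of the TSS (interquartile range 196 to 752 bp) and within 2000 bp of it in 526 of 581 domains (90.5%), against 212 bp and 99.0% in narrower domains. Peaks covered 97.6% of the wide domains at 2250 bp downstream, 89.8% at 4250 bp, 70.1% at 6250 bp, 34.1% at 8250 bp and 18.4% at 10250 bp. At 1750 bp upstream they covered 28.2% and at 3750 bp upstream 7.75%.

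The members were chosen by width, which fixes most of the downstream part, so its values by gene length are given only as a description. For genes under 7 kb (54 domains), 7 to 20 kb (126), 20 to 100 kb (275) and over 100 kb (126), the median downstream part was 6483, 7281, 7639 and 7780.5 bp. Median gene length was 33336 bp, and 31816 bp in the narrower class. The share of the gene body covered fell from 100% to 63.8%, 21.9% and 5.07% over the same 4 classes. Over all 581 it was 24.1% at the median, against 4.79% in narrower domains.

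Whole genes were inside for 56 of the 581 domains (9.64%), against 1.52% of the narrower ones, and 80 genes were shorter than their domain. A longer span covers whole genes more readily, so these values too describe the choice by width. Counting also genes that shared a domain, the widest domains that covered a whole gene of over 3000 bp were those of Hoxc10 and Hoxc11, Nr2f2 (14.8 kb), Egfl7 (13.1 kb), Pygm (14.1 kb) and Hoxa10 (9.66 kb). Among genes that were the only protein-coding gene in their domain, the smallest was Hspb3, a small heat shock protein gene. It has 781 bp in a 7701 bp domain, and the next was Jund, of 1668 bp in 7598 bp. At the other extreme the Dmd domain covered 0.352% of 2257 kb and that of the splicing regulator Rbfox1 0.498% of 1526 kb. The 5′ end of the annotated gene was inside 438 domains (75.4%), near the 78.8% of the narrower ones. The other 143 wide domains held an internal start alone.

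Several gene bodies overlapped more than 1 wide domain. The bodies of 31 of the 21755 annotated protein-coding genes overlapped at least 2, whichever gene started there, so the 31 are not all separate loci. Cmss1 and Filip1l overlapped the same 2, Gm49380 the 23671 bp domain of Usp2 and Thra the 9917 bp domain of Nr1d1. Gm20388, annotated over 4435 kb, overlapped 3. Nfix, a nuclear factor I gene of adult muscle, carried 4 of 10193, 8706, 11733 and 17262 bp over 46.9% of its 100.5 kb. Pgm1, the phosphoglucomutase gene, carried 3 of 15351, 12903 and 7631 bp over 60.6% of its 57.9 kb. Ttn carried 2, which covered 13.3% of its 278.6 kb and lay 21085 bp apart. Zbtb16, Mbnl1, Asb2, Myom1, Ldb3, Mypn, Srl, Cd36, Mef2c and Hdac5 also carried 2, and a gap of 2000 bp or less separated neighbouring domains in 6 of the 31 genes.

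CpG dinucleotides were concentrated at the start. Wide domains had a median observed over expected CpG ratio of 0.351 (0.572 in the 14144 narrower coding domains) and 22.6 CpG per kb (39.8). In domains with 1 protein-coding gene, the ratio within 1000 bp of the TSS was 0.601 in 581 wide and 0.638 in 12698 narrower ones. Further than 2000 bp downstream it was 0.237 and 0.226, in the 576 wide and 2556 narrower domains that extended far enough. In absolute number wide domains held a median of 212 CpG, against 89, over spans that were chosen for their length. The lowest ratio was that of Trdn (0.0980 over 20319 bp, with 65 CpG) and the highest that of the chromatin remodelling gene Arid2 (0.868 over 8167 bp, with 496 CpG).

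The same loci were wide in both pools in most cases. In pool E the domain with the largest overlap had a median width of 9105 bp, and it reached 7000 bp in 677 of 727 (93.1%), against 2.55% of all domains. In pool F the median was 8188 bp and 587 (80.7%) reached 7000 bp, against 1.7% of all domains. Both did so for 570 (78.4%), against 1.64%. These shares of all domains include the members, which made up 570 of the 575 domains wide in both pools, so they are no independent background. Pool E alone did for 107, pool F alone for 17 and neither for 33. No member was without a domain in either pool. Over the whole lists, 789 of 35416 pool E domains (2.23%) and 596 of 32792 pool F domains (1.82%) were 7000 bp or more.

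Pool F was narrower than pool E at most members: the ratio of pool F to pool E width had a median of 0.955 (0.221 to 2.12) and was above 1 in 127. The median was 0.951 at 13994 narrower coding domains found in both pools, so the shift was common to both classes. The ratio lay between 0.8 and 1.25 at 561 wide domains (77.2%) and at 87.6% of the narrower ones. Agreement went with structure: single-peak members reached 7000 bp in pool F in 119 of 124 cases (96.0%) and in pool E in 123, while members of 4 or more peaks did so in 176 of 249 (70.7%) and in 224. Of members of 10000 bp or more, 229 of 246 (93.1%) were wide in both pools, and of those under 8000 bp, 138 of 219 (63.0%). A member was split into several domains in 46 cases in pool E and in 146 in pool F.

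**Figure D5:**
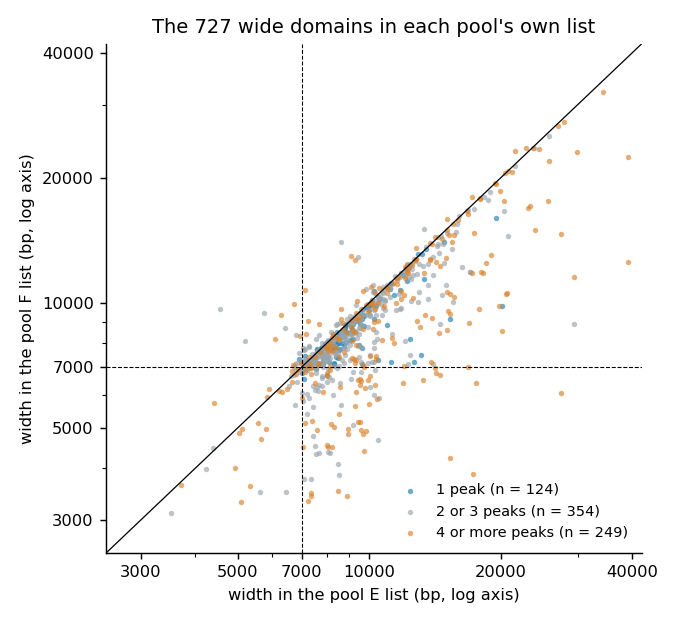
Width in pool F (y axis) against pool E (x axis) of the domain with the largest overlap, in bp on log axes, for the 727 members, coloured by number of peaks, with equality as a line and 7000 bp dashed. Single-peak members lie close to the line, and members of 4 or more peaks spread below it.

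The members with the lowest ratios were joined to neighbours in pool E or broken in pool F. The downstream Ttn domain of 16001 bp measured 17253 bp for pool E and 3865 bp for pool F. Domains inside Ldb3 (10975 bp), Rgmb (7585 bp) and Ehd1 (10017 bp) measured 27539, 15271 and 17527 bp in pool E and 6077, 4219 and 6392 bp in pool F. The domain of the non-coding gene 1810026B05Rik measured 29457 bp in pool E, where it joined that of the neighbouring Chd2, and 8905 bp in pool F. The domain of 14254 bp with Lsp1 alone joined the one shared by Lsp1 and Tnnt3 in pool E to 39150 bp. In pool F the 2 measured 12536 and 22431 bp.

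Pool F was the wider in few cases. A Bcl9l domain of 9701 bp, in the gene of a beta-catenin cofactor, measured 4552 bp for pool E and 9668 bp for pool F. The domain of Hes7, Aloxe3 and 9130213A22Rik measured 5736 and 9457 bp, that of the alanine transaminase gene Gpt2 6281 and 9359 bp, that of the non-coding 2310065F04Rik 7131 and 10752 bp, and a domain inside Cxxc5 8598 and 13985 bp. In Bcl9l, Hes7 and Gpt2 the pool E list held 2 domains at the locus and pool F 1, so the ratio recorded whether a gap was bridged.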

How the data were processed

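The authors deposited 4 narrowPeak lists on mm10: pool E, pool F, pooled and replicated. Aligner, peak caller and settings are not given in the sources used here, nor is the input beyond a record name. Per the deposited files, each peak has a signal value of the authors' own, a −log10 p-value and a −log10 q-value, and start, end and summit positions. Signal values served to rank peaks within a list, q-values only for an alternative. The lists hold no value per library, and no column of per-sample values was left unused.

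Peaks with gaps of at most 1000 bp were joined, with Python 3.11.15 (pandas 2.3.3, numpy 2.4.6, scipy 1.17.1), and domains of 7000 bp or more kept. TSSs and genes came from GENCODE M21, and sequences from RefSeq GRCm38.p6. In other lists the same locus was the domain with the largest overlap, of at least 1 bp. Upstream and downstream parts were measured from a gene's most upstream TSS inside a domain. Shares carry 95% Wilson intervals in places, which cover counting error only. No test was run across regions, which are not replicates. The code was tested on simulated peak lists.

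The members, the 24 gene lists and the rule for named genes were chosen with earlier results of these data known. The rule named the 25 widest domains, those with most peaks, most genes, extreme pool ratios, no TSS, extreme direction, whole genes inside or widths at the limit, and listed genes inside wide domains. Single-peak, X-linked, CpG-extreme, non-coding and shortest or longest genes were named after their values were seen. Alternatives were other gaps, limits, q-values, lists, transcripts and overlaps. A few named items are not reported here.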

Additional observations from a re-analysis of the deposited data

How the results depend on the processing

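Widths depend on the joining gap, the width limit and how far a peak caller extends weak signal, and depth is unknown, so differences between pools were read as values only. The share of domains with more downstream than upstream was 68.7%, against 69.7% of narrower domains, from the most downstream TSS, the reverse order of the reported one. The number of domains was 331 with no gap bridged, 1715 with a limit of 5000 bp and 246 with 10000 bp, and 596 or 789 without a pool. The share with a protein-coding TSS was 96.1% without bridging and 91.5% with basic transcripts. The median number of peaks was 2 at a gap of 500 bp, 1 without bridging, 2 at 5000 bp, 4 at 10000 bp and 2 with q-values of at most 0.0001. The single-peak share was 25.6%, 100%, 32.0%, 7.72% and 27.3% in that order, 9.56% at a gap of 2000 bp and 14.2% in the pooled list. The gene-body share was 26.1% at a gap of 2000 bp, 19.9% at 5000 bp, 30.3% at 10000 bp, 25.6% in the pooled list, 26.7% with basic transcripts and 24.1 to 25.7% without a pool. The downstream share was 87.0%, 88.1% and 85.8% at gaps of 500, 2000 and 0 bp, 84.9% and 89.0% at limits of 5000 and 10000 bp, 87.8% in the pooled list, 86.3% with basic transcripts, 69.8% from the most downstream TSS, 87.5 to 87.7% without a pool and 83.8% for genes with 1 TSS position, an alternative chosen after seeing the data. The CpG ratio was 0.372 without bridging, 0.399 at 5000 bp, 0.320 at 10000 bp and 0.356 with q-values of at most 0.0001. Counting only bases under peaks, the pool E median was 8336 bp and the share wide in both pools 69.6%, and that share was 75.0% at a gap of 500 bp. At a gap of 500 bp the 25 widest domains kept 0.399 to 1 of their width (Epas1 8381 bp, Coq8a 10613 bp), and without bridging 0.183 to 0.920, with 24 of the 25 at 7000 bp or more. No paired analysis was possible because the pools share only technical replicate numbers, each list holds 1 value per pool and no result comes from a test.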

Other observations

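Non-coding genes also started in wide domains. Starts of genes of other biotypes lay in 218 of the 727 (30.0%), against 14.3% of the narrower domains with a protein-coding TSS. Starts on both strands lay in 235 (32.3%), against 21.0%. The median width was 8845 bp in the 727 and 2215 bp in those narrower domains. A longer span holds starts more readily, and no rate per kb was taken, so these shares too describe the choice by width. By biotype, 30 of 788 processed transcripts (3.81%) started in a wide domain. In 19 domains such starts were the only ones. The widest of these, 29164 bp on chromosome 19, held Neat1, the RNA scaffold of paraspeckles, and measured 29931 bp for pool E and 23069 bp for pool F. Its neighbour Malat1, an abundant nuclear RNA, had 10788 bp. The muscle miRNA hosts were there too: the domain of Mir1a-1 measured 9776 bp, 10266 bp for pool E and 8992 bp for pool F. The host of Mir133a-1 and Mir1a-2 measured 7442, 7638 and 7411 bp. Other such domains held Carmn (12440 bp), Dleu2 (11088 bp), Lncpint (10149 bp) and the start of Mir193a (9493 bp).

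The 20 domains without a GENCODE TSS were not all weak. The widest, from 85663691 to 85690738 on chromosome 15, lay over Lncppara and Gm49539, 10075 bp from the nearest TSS, with a highest signal value of 60.2, and measured 27048 bp, 27037 bp for pool E and 26654 bp for pool F. The next 4 were a Nfix body domain of 17262 bp, a Bin1 body domain of 15319 bp, the domain of 13959 bp near Lpin1 and a Zbtb16 body domain of 13085 bp. A RefSeq transcript start lay inside 5 of the 20, namely of Nfix, Bin1, Lpin1, Rapgef1 and a cluster of 7 tRNA genes on chromosome 13. The other members of the 20 lay inside a protein-coding gene or between genes: 14 of all 20 were in a coding gene's body and 6 outside. The Fmod body domain began 13 bp from the nearest TSS.

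On X there were 7 wide domains of 824 domains (0.85%), against 2.07% overall: Pfkfb1 with Apex2 (10013 bp), Pcdh19 (9533 bp), Phka1 (9355 bp), Dmd (7947 bp), Stard8 (7784 bp), Flna (7411 bp) and a domain of 8318 bp without a TSS. Pfkfb1 and Phka1 encode enzymes of glycolytic and glycogen control, and Flna a filamin.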
